A study of Mus musculus with 8 samples.

Results

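The genes described here are 8 mouse genes of the neural lineage, Olig2, Olig1, Sox1, Nes, Neurog2, Neurod1, Pax6 and Pax7, taken by name from the 49943 genes of the RefSeq table of GRCm38.p6 (mm10), of which 21887 are protein-coding. Each was given a window of its gene body plus 50 kb on each side, and every CTCF or Smc3 peak with its summit in a window was counted. Chromatin immunoprecipitation and sequencing (ChIP-seq) had been used to map both proteins in C59 and in WT mouse embryonic stem cells. C59 is a single JM8.N4 clone in which both copies of CTCF carry FLAG and Halo tags and both copies of Rad21 carry SNAPf and V5 tags, and WT is untagged JM8.N4. Both lines were grown without feeders in medium with serum and LIF, and both were fixed for 5 minutes in 1% formaldehyde. Each line gave 1 CTCF library and 1 Smc3 library with a peak list, so no value has a replicate and no difference between lines can be set against a spread. The lists hold no expression values, so neither the embryonic stem cell identity of the lines nor the silence or activity of any neural gene could be checked.

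CTCF recognises a defined DNA motif through its zinc fingers and can halt loop extrusion. Cohesin, a ring whose core subunits include Smc3 and Rad21, extrudes chromatin loops and often collects where CTCF is bound. Many regulators of neural fate have CpG-rich promoters that Polycomb complexes hold silent in embryonic stem cells. Olig2 and Olig1 are basic helix-loop-helix factors of the oligodendrocyte lineage, and Olig2 also specifies motor neuron progenitors. Sox1 is an HMG-box factor that marks the early neural plate, and Nes encodes nestin, an intermediate filament protein of neural progenitors. Neurog2 and Neurod1 are helix-loop-helix factors that drive neuronal commitment and differentiation, with Neurod1 also acting in the endocrine pancreas. Pax6 and Pax7 are paired-box factors, Pax6 of the eye and cortical progenitors and Pax7 of the dorsal neural tube, neural crest and muscle satellite cells.

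Promoter sequences, covering 250 bases before and 50 bases after a start site, came from the RefSeq table of GRCm38.p6, which held 7 of the 8 genes. They are shown for the Olig2 and Nes starts, with the bases inside the C59 CTCF peak in capitals. Of the 7 genes, these are the only ones whose promoter window is reached by a CTCF peak. Olig1 had no entry, so its promoter was not examined. The capitals take up 68 bases of the Olig2 window at chr16:91225300-91225599 on the plus strand, of which the WT CTCF peak covers 8, and 55 bases of the Nes window at chr3:87970843-87971142 on the plus strand, of which the WT CTCF peak covers 43. Each sequence is written 5′ to 3′ on the strand of its gene.
Olig2: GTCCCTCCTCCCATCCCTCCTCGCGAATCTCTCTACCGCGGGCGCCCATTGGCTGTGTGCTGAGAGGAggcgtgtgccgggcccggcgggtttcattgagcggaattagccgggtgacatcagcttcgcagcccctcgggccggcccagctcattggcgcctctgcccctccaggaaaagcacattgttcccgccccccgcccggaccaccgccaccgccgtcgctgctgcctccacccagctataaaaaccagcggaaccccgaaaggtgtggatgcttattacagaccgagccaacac
Nes: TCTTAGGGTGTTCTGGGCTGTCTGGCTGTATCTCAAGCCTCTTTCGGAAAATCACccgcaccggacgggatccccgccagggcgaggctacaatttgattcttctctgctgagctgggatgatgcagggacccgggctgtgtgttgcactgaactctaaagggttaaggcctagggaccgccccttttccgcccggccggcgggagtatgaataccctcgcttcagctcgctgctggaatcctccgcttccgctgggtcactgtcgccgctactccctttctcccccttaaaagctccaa
At both genes the peak therefore ends upstream of the start site, and its summit lies outside the 300 bases. The WT Smc3 peak covers 97 bases of the Olig2 window, and no Smc3 peak reaches that of Nes.

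Inside the windows, CTCF summits fell in promoter sequence at 2 neighbouring genes in both lines. These are Bcan, which encodes the brain proteoglycan brevican and lies downstream of Nes, and Gm41492, an annotated long non-coding RNA upstream of Olig2. Their promoters at chr3:88000307-88000606 and chr16:91200503-91200802, both on the minus strand, are shown with the 41 bases centred on the WT CTCF summit in capitals.
Bcan: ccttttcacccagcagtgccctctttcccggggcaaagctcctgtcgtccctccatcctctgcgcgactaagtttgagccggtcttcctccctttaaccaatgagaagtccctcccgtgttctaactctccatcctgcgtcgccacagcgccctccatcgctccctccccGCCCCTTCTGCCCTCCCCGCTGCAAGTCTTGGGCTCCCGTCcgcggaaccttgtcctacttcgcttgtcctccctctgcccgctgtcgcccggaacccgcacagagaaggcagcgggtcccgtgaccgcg
Gm41492: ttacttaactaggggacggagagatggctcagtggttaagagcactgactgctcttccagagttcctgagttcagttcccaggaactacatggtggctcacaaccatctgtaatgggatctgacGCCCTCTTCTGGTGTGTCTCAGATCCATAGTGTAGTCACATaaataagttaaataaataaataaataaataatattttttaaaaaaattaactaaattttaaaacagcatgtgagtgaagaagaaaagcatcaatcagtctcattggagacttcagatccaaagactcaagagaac
At Bcan the CTCF fold was 14.5 in C59 and 16.9 in WT, and at Gm41492 it was 10.1 in C59 and 9.79 in WT. A pair of 7-letter runs of the core CTCF motif, AGGGGGC and AGGTGGC, were searched on both strands. They occur in 16.0% of 32851 promoters of the table, in 36.4% of the 2326 promoters that hold a WT CTCF summit and in 14.5% of those that hold none. None of the 4 printed sequences holds either run. The Sox1 promoter holds 2 matches and those of Pax7, Neurog2 and Neurod1 hold 1 each, although no peak of any list covers them. A match is only a match of letters, and its absence says nothing of the protein.

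The windows together held 61 CTCF peaks in C59 and 63 in WT, and 27 Smc3 peaks in C59 and 49 in WT. Numbers of peaks in C59 against WT were 82227 and 98759 in the whole CTCF lists and 25734 and 47281 in the whole Smc3 lists. A place with no peak is a place below the authors' threshold, and it may still be bound. When every list was held to the 25734 peaks of the shortest, the windows held 27 Smc3 peaks in C59 and 29 in WT, and 23 CTCF peaks in each line. The strength of a peak is given throughout as the authors' fold enrichment, the pileup of fragments at the summit over the local background. The pileups of the lists were scaled differently, so folds are set side by side for the same site and not tested. The median fold was 11.2 in the whole C59 CTCF list, 9.50 in the WT CTCF list, 5.66 in the C59 Smc3 list and 5.80 in the WT Smc3 list.

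**Figure D1:**
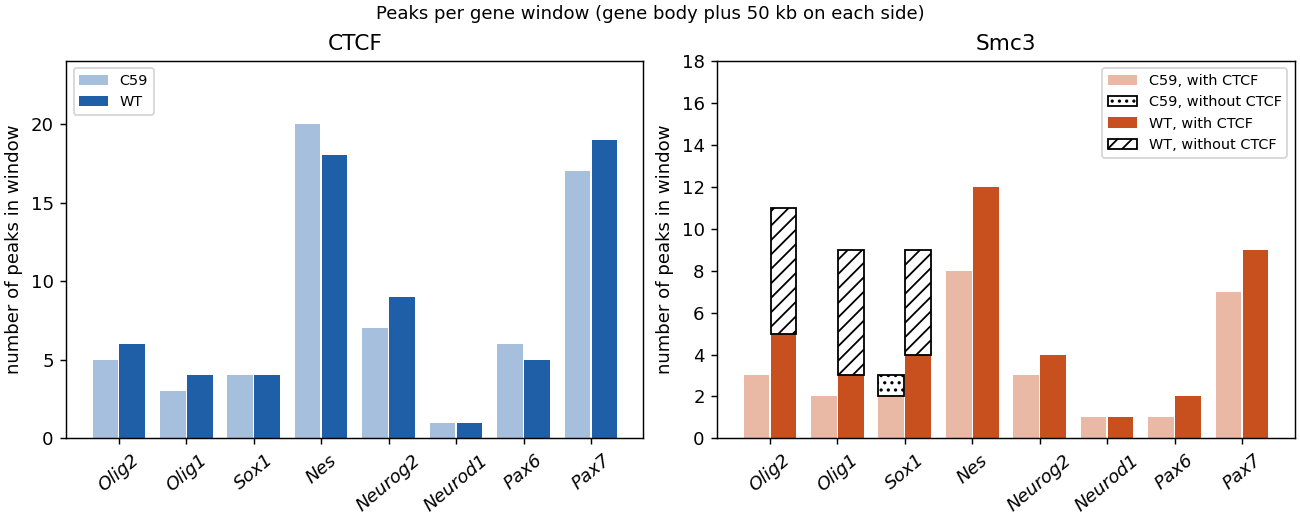
Number of peaks with a summit in each gene's window, CTCF on the left and Smc3 on the right, with C59 as the light bar and WT as the dark bar; hatched or dotted parts of the Smc3 bars are peaks that overlap no CTCF peak of the same line. Hatched WT parts stand at Olig2, Olig1 and Sox1 alone, and the windows of Olig2 and Olig1 share peaks because they overlap.

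CTCF peaks ranged from 1 at Neurod1 in each line to 20 at Nes in C59 and 19 at Pax7 in WT. Nes had 18 in WT. Pax7, the longest of the genes, had 17 CTCF peaks in C59 and 19 in WT, and Neurog2 had 7 in C59 and 9 in WT. Pax6 had 6 in C59 and 5 in WT, Olig2 had 5 in C59 and 6 in WT, Sox1 had 4 in each line, and Olig1 had 3 in C59 and 4 in WT. The lines thus differed by at most 2 CTCF peaks in any window. For Smc3 the gaps were wider at 4 genes: Olig2 had 3 peaks in C59 and 11 in WT, Olig1 had 2 in C59 and 9 in WT, Sox1 had 3 in C59 and 9 in WT, and Nes had 8 in C59 and 12 in WT. As differences in peak number, the gaps at the first 3 narrowed under both a cut to equal length and a stricter q. At Nes the gap narrowed under the cut to equal length. The stricter q lowered the Sox1 count in both lines, not in WT alone. With lists of equal length Olig2 had 3 Smc3 peaks in C59 and 4 in WT, Olig1 had 2 in C59 and 3 in WT, Sox1 had 3 in each line and Nes 8 in each line. At a −log10 q of 10 or more Olig2 had 3 in C59 and 4 in WT, Olig1 had 2 in C59 and 3 in WT, Sox1 had 1 in C59 and 3 in WT, and Nes had 5 in C59 and 9 in WT. As deposited, Pax7 had 7 Smc3 peaks in C59 and 9 in WT, Neurog2 had 3 in C59 and 4 in WT, and Pax6 had 1 in C59 and 2 in WT. Neurod1 had a single Smc3 peak in each line.

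Per 100 kb of window, the median of the 8 genes was 4.74 CTCF peaks in C59 and 4.87 in WT, beside 5.57 and 6.72 over the windows of all protein-coding genes. For Smc3 the median of the 8 genes was 2.90 in C59 and 6.62 in WT, beside 1.61 and 2.97 over all protein-coding genes. The median CTCF density at the neural genes was thus below that of all genes in each line, and the median Smc3 density above it. Not every gene followed the Smc3 median: Pax6 and Neurod1 lay below that of all genes in both lines. Olig1 and Olig2 share peaks but enter as separate genes. Their WT Smc3 counts and that of Sox1 fell under the stricter settings given above. Nes was the densest of the 8, with 18.3 CTCF peaks per 100 kb in C59, a density that 1.82% of protein-coding genes reached, and 16.5 in WT, which 8.76% reached. Its 7.32 Smc3 peaks per 100 kb in C59 were reached by 1.62% of genes, and its 11.0 in WT by 2.97%. Neurod1 had 0.962 peaks per 100 kb in each of the 4 lists, the lowest of the 8 in 3 of them; in C59 Smc3 Pax6 was lower, at 0.772.

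**Figure D2:**
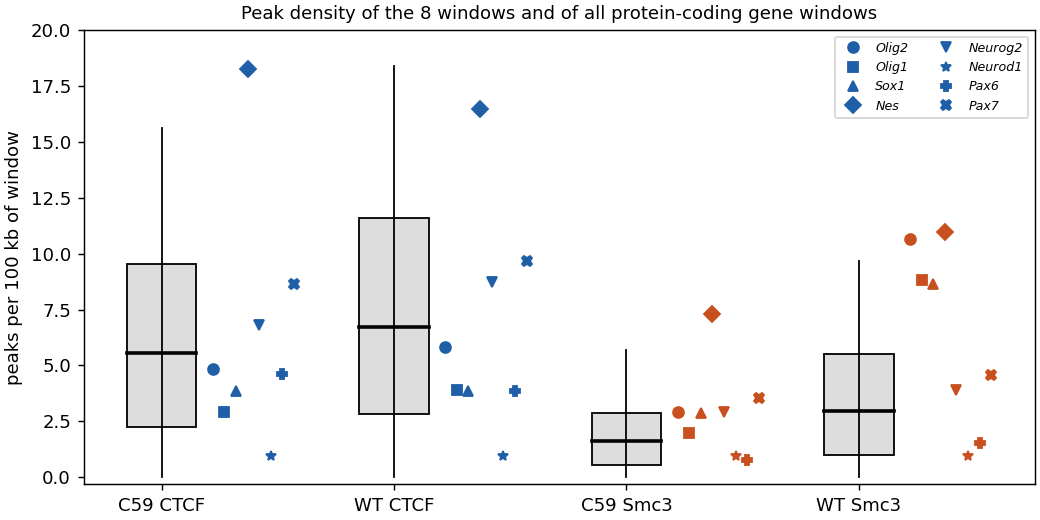
Peaks per 100 kb of window in each list, C59 left of WT for each protein; boxes give the lower quartile, median and upper quartile over 21887 protein-coding genes, whiskers the 5th and 95th percentiles, and symbols the 8 neural genes. Nes is the highest symbol in all 4 lists, and Olig2, Olig1 and Sox1 lie well above the box in WT Smc3 only.

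CTCF sites of the neural windows were largely the same in both lines. Of the 61 C59 CTCF peaks, 58 (95.1%, exact 95% interval 86.3 to 99.0) overlapped one of the WT list, where 97.1% of the whole C59 list did so. Of the 63 WT CTCF peaks, 56 (88.9%, 78.4 to 95.4) overlapped one of C59, where the whole WT list had 79.8%. Where a site was paired, the summits of the lines lay a median of 14 bp apart, and 53 of 56 pairs lay within 50 bp. Intervals here and below are Clopper-Pearson intervals, and they cover the error of counting and nothing else.

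The unpaired CTCF peaks were all weak. The 3 found in C59 alone had folds of 3.38 in the body of Pax6 (chr2:105688448-105688697), 4.05 upstream of Nes (chr3:87934524-87934789) and 3.85 downstream of it (chr3:88025817-88026069). The 7 found in WT alone had folds of 3.22 to 4.94, the strongest of them 41.4 kb downstream of the Neurog2 left end (chr3:127673983-127674261). By comparison, paired peaks had a median fold of 12.5 in C59 and 16.4 in WT.

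All 27 C59 Smc3 peaks of the windows (100%, 87.2 to 100) overlapped WT Smc3, as 98.1% of the whole list did. Of the 49 WT Smc3 peaks, 27 (55.1%, 40.2 to 69.3) overlapped C59 Smc3, close to the 52.9% of the whole list. The 22 in WT alone had a median fold of 3.96, from 2.66 to 11.1, where the 27 paired peaks had a median of 7.74 in C59 and 11.1 in WT. The strongest of the 22 lay 19.3 kb upstream of Pax7 at chr4:139852314-139853067, on a CTCF site with a fold of 7.90 in C59 and 17.7 in WT. With lists of equal length the share of WT Smc3 peaks found in C59 was 79.3%.

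**Figure D3:**
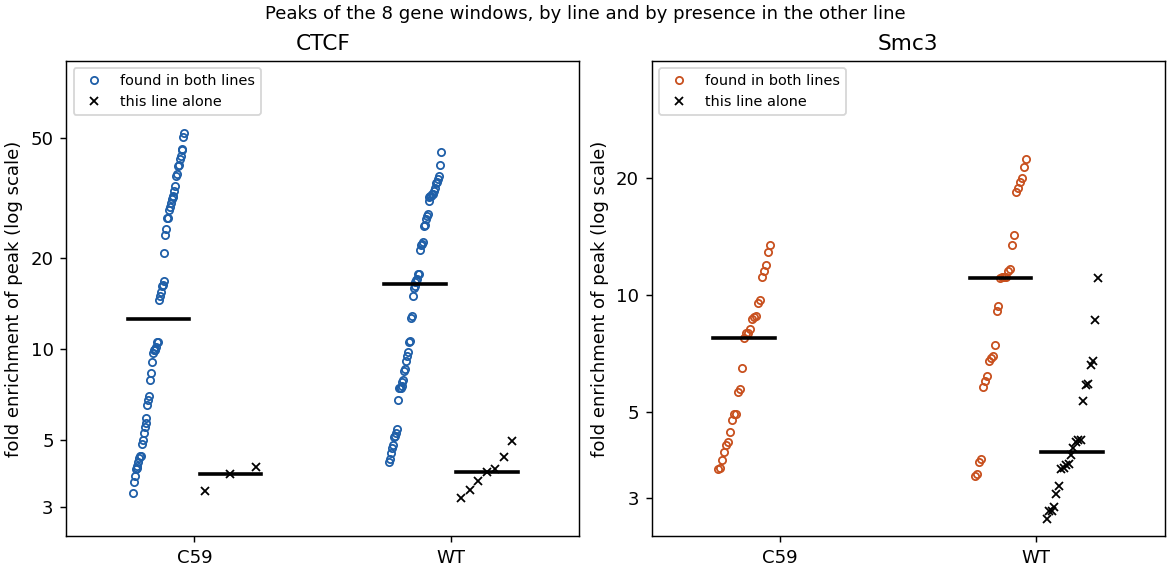
Fold enrichment, on a log scale, of every peak of the 8 windows, C59 left of WT for each protein; open circles are peaks that overlap a peak of the other line, crosses are peaks of 1 line alone, each set ordered by fold, and bars are medians. The crosses for CTCF lie between 3.22 and 4.94, at the foot of the range.

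Most Smc3 peaks of the neural windows stood on CTCF, and the exceptions lay at the Olig genes and Sox1. In C59, 26 of 27 Smc3 peaks (96.3%, 81.0 to 99.9) overlapped CTCF of the same line, beside 97.9% of the whole list. In WT, 38 of 49 did (77.6%, 63.4 to 88.2), beside 95.2%. The order of the lines turned with the overlap rule: requiring 50% of both peaks left 37.0% in C59 and 51.0% in WT. No whole-list share was taken under that rule, so whether the turn is particular to these windows is not known. The 11 WT Smc3 peaks without CTCF made 22.4% of the windows' peaks (11.8 to 36.6), beside 4.79% of the whole list, and the 1 such C59 peak made 3.70%, beside 2.11%. Of the 11, 6 lay in the shared Olig1 and Olig2 window and 5 in that of Sox1. Those windows held 21 WT Smc3 peaks in all, and the other 5 windows held 28, a split that follows where the 11 lay and so carries no comparison. No C59 CTCF peak overlapped any of the 11 either. Peaks of 1 window are neighbours on 1 stretch of chromatin and are not independent.

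All 11 were weak, with folds of 2.66 to 4.18 and a median of 3.60, and 1 of them (9.09%) was found in C59, beside 14.4% of all WT Smc3 peaks without CTCF. None reached a −log10 q of 10, and at that threshold all 30 WT Smc3 peaks left in the windows overlapped CTCF. The whole-list share at that threshold was not taken, so the 30 carry no comparison. Over all protein-coding genes, 17.3% had 1 or more such WT peaks in their window and 0.667% (146 genes) had 5 or more, as Olig1, Olig2 and Sox1 did. In C59 the same shares over all genes were 6.59% and 0.292%, and of the 8 genes Sox1 alone had such a peak. The cut of 5 is the lowest WT count among Olig1, Olig2 and Sox1, so the 0.667% describes them and is no test. Olig1 and Olig2 reached it through the same 6 peaks.

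Olig2 (chr16:91225550-91228677) had the strongest CTCF site of the shared Olig window just upstream of its start. The C59 CTCF peak at chr16:91224311-91225367 had a fold of 43.6 and a summit 641 bp upstream, and the WT peak at chr16:91224320-91225307 had a fold of 40.7 and a summit 642 bp upstream. Smc3 stood on it with a fold of 11.9 in C59 and 19.5 in WT. This is the site whose edge is printed in capitals above. A second strong CTCF site 7.4 kb upstream had a fold of 40.8 in C59 and 22.6 in WT and carried 2 Smc3 peaks. Their folds were 13.5 in C59 and 11.5 in WT at the CTCF summit, and 8.78 in C59 and 11.1 in WT at 8.3 kb upstream. Going upstream from Olig2, the other CTCF sites had folds of 4.35 in C59 and 10.5 in WT at 5.0 kb, 9.93 in C59 and 15.0 in WT at 14.1 kb, and 10.1 in C59 and 9.79 in WT at 24.9 kb. Of these, the first and the last had Smc3 in WT alone, with folds of 8.62 and 3.07, and the middle one had none in either line.

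The 6 WT Smc3 peaks without CTCF lay just upstream of Olig2, over both Olig genes and between them. A pair stood 3.2 and 2.7 kb upstream of Olig2 with folds of 3.57 and 2.79. Another summit, with a fold of 3.60, stood 136 bp inside the right end of Olig2. One lay in the interval between the genes, 13.7 kb left of Olig1, with a fold of 3.68. The last 2 lay over Olig1 (chr16:91269769-91271939), with folds of 4.18 at 134 bp inside its left end and 4.04 at 817 bp inside its right end. None of the 6 had a C59 counterpart. The one at the left end of Olig1, at chr16:91269734-91270120, began just right of a weak WT CTCF peak at chr16:91269443-91269710. Their summits were 0.338 kb apart, and it counts as without CTCF only because the peaks share no base. That CTCF peak had a fold of 3.64 and was also absent from the C59 list. Olig1 otherwise had a CTCF site 44.6 kb to its right, with a fold of 25.0 in C59 and 17.7 in WT, and Smc3 with 5.72 in C59 and 9.39 in WT. The background that the pileups imply in the Olig2 window was close to that of its list. It was 0.940 of the list median for C59 Smc3, from 3 peaks, and 1.07 for WT Smc3, from 11. In the Olig1 window it was 1.29 for C59 Smc3, from 2 peaks, and 0.999 for WT Smc3, from 9.

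**Figure D4:**
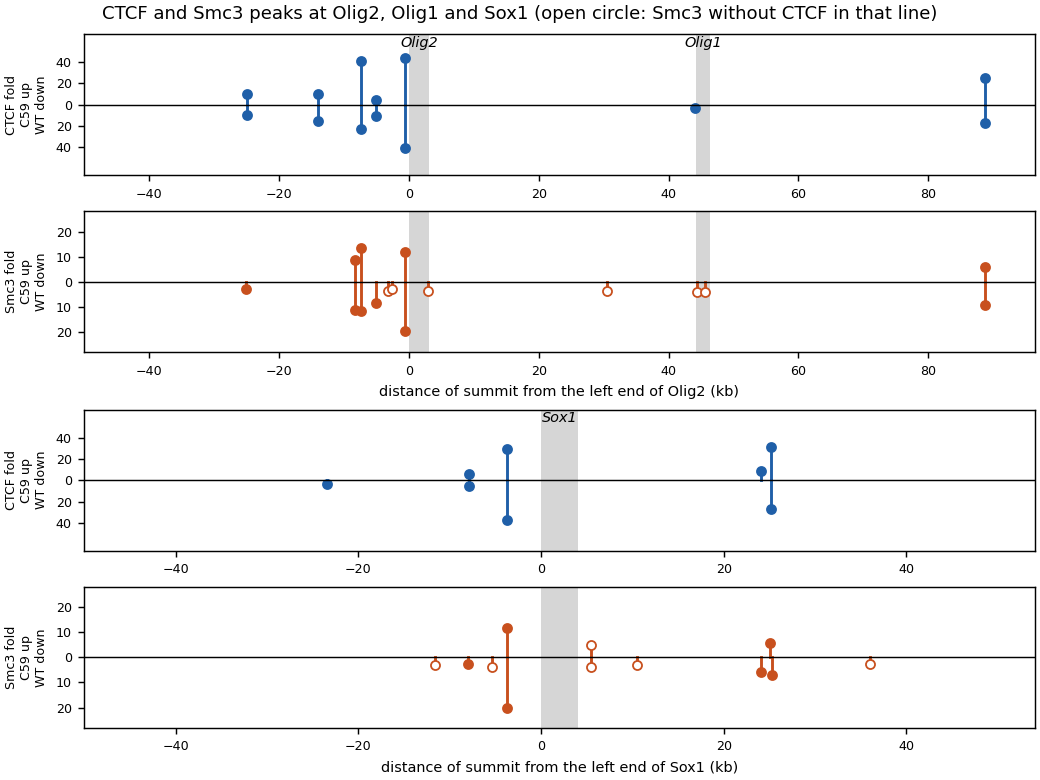
Peak summits by distance from the left end of Olig2 and of Sox1, in kb, with fold enrichment upward for C59 and downward for WT, CTCF in blue and Smc3 in orange; grey marks genes, filled Smc3 circles overlap CTCF of the same line and open ones do not. All open circles point to WT except the upward one of the pair right of Sox1. A further 4 filled Smc3 circles, with WT folds of 8.62, 3.07, 2.78 and 5.86, also have no C59 partner.

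Sox1 (chr8:12395519-12399555) had no peak of either protein within 1 kb of its ends or in its body, and it lay between 2 strong CTCF sites. The nearer, 3.8 kb upstream, had a CTCF fold of 29.0 in C59 and 37.6 in WT and a Smc3 fold of 11.5 in C59 and 20.0 in WT, the strongest of the window in WT for each protein. The other, 25.2 kb downstream, had a CTCF fold of 31.4 in C59 and 27.0 in WT, with a Smc3 fold of 5.63 in C59 and 6.89 in WT. The Smc3 peaks without CTCF stood 11.6 and 5.4 kb upstream of Sox1 with WT folds of 2.85 and 3.87. Downstream of the start they stood at 5.4, 10.6 and 36.1 kb with WT folds of 3.73, 3.23 and 2.66. The first of the downstream 3 was the only one paired, with a C59 fold of 4.78 at chr8:12400790-12401057, and its nearest CTCF summit was 9.24 kb away in C59 and 9.19 kb away in WT. All 5 lay within or just upstream of Sox1ot, the long non-coding RNA gene that overlaps Sox1. In the Sox1 window the implied background of Smc3 peaks was 0.839 of the list median in C59 and 1.37 in WT. On all of chromosome 8 it was 0.940 of the list median in C59 and 1.49 in WT for Smc3, and 1.00 in C59 and 1.33 in WT for CTCF. The part of this background in the WT peaks at Sox1 was not tested.

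Nes (chr3:87971093-87980451), the structural gene of the set, had the most CTCF peaks in C59, at 20. In WT it had 18, where Pax7 had 19. None of the Nes CTCF peaks had its summit in the gene body. Its start had a CTCF site with a summit 793 bp upstream in C59 and 779 bp upstream in WT, with a fold of 37.5 in C59 and 35.4 in WT. Smc3 stood on it with a fold of 12.9 in C59 and 22.3 in WT, the highest WT Smc3 fold of any neural window. The strongest CTCF peak of the Nes window lay 35.2 kb upstream, over the neighbour Isg20l2, with a fold of 51.9 in C59 and 35.8 in WT and Smc3 at 11.1 in C59 and 13.4 in WT. CTCF sites 10.0 kb upstream and 16.0 kb downstream of the start flanked the gene. The upstream one had a CTCF fold of 27.1 in C59 and 32.0 in WT, with Smc3 at 9.56 in C59 and 21.3 in WT. The downstream one had a CTCF fold of 32.1 in C59 and 34.3 in WT, with Smc3 at 7.74 in C59 and 18.9 in WT. All 12 WT and all 8 C59 Smc3 peaks of the Nes window overlapped CTCF of the same line. Of the 4 WT Smc3 peaks with no C59 counterpart, the strongest had a fold of 5.92.

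Neurog2 (chr3:127632733-127635636) carried its strongest CTCF site inside its body, 1.5 kb right of its left end, with a fold of 50.4 in C59 and 44.8 in WT. CTCF sites also stood 7.3 kb to either side of the left end. The upstream one had 46.1 in C59 and 32.0 in WT, and the downstream one 45.5 in C59 and 32.0 in WT. Both were near the body site in strength in C59 and further below it in WT. Smc3 was strongest at the upstream site, with 8.00 in C59 and 11.2 in WT, beside 4.11 in C59 and 6.98 in WT in the body and 4.45 in C59 and 6.78 in WT downstream. The site with the highest CTCF fold was thus not the one with the highest Smc3 fold. The peak at the Neurog2 left end was weak, with a CTCF fold of 3.63 in C59 and 6.80 in WT and no Smc3. Neurod1 (chr2:79452637-79456636, minus strand) had 1 site in its whole window, 42.9 kb upstream, with a CTCF fold of 20.7 in C59 and 32.5 in WT and a Smc3 fold of 7.97 in C59 and 18.4 in WT.

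Pax6 (chr2:105668896-105698410) held most of its CTCF within the gene: 5 of 6 CTCF peaks in C59 and 4 of 5 in WT had their summit in the gene body. The strongest, 18.8 kb into the gene in WT, had a CTCF fold of 16.4 in C59 and 17.0 in WT and a weak Smc3 peak of 3.77 in C59 and 3.47 in WT. The site 1.2 kb upstream of the gene had a CTCF fold of 10.5 in C59 and 12.7 in WT, and the strongest WT Smc3 peak of the window, with a fold of 4.24, stood there in WT alone. No CTCF or Smc3 summit of either line lay to the right of the one 9866 bp before the right end of the gene, nor in the 50 kb flank beyond it. The highest Smc3 folds at Pax6, 3.77 in C59 and 4.24 in WT, were the lowest maxima among the 8 genes.

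Pax7 (chr4:139737059-139833530, minus strand) had CTCF inside its body and on both sides. Of its 17 C59 and 19 WT CTCF peaks, 5 in each line lay in the body, the strongest with a fold of 34.6 in C59 and 25.7 in WT. Outside the gene, the strongest in WT lay 39.3 kb upstream with a fold of 36.6, against 40.5 in C59, and the strongest in C59 lay 43.9 kb upstream with 42.5, against 25.6 in WT. The highest WT Smc3 fold, 14.3, stood 25.3 kb upstream, where C59 had 6.48. Each of the 2 Smc3 peaks in the body overlapped CTCF in each line, with folds of 4.95 and 3.57 in C59 and 6.20 and 3.78 in WT. At the right end of Pax7, where its start lies, the only peak was a WT CTCF peak with a fold of 3.42.

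**Figure D5:**
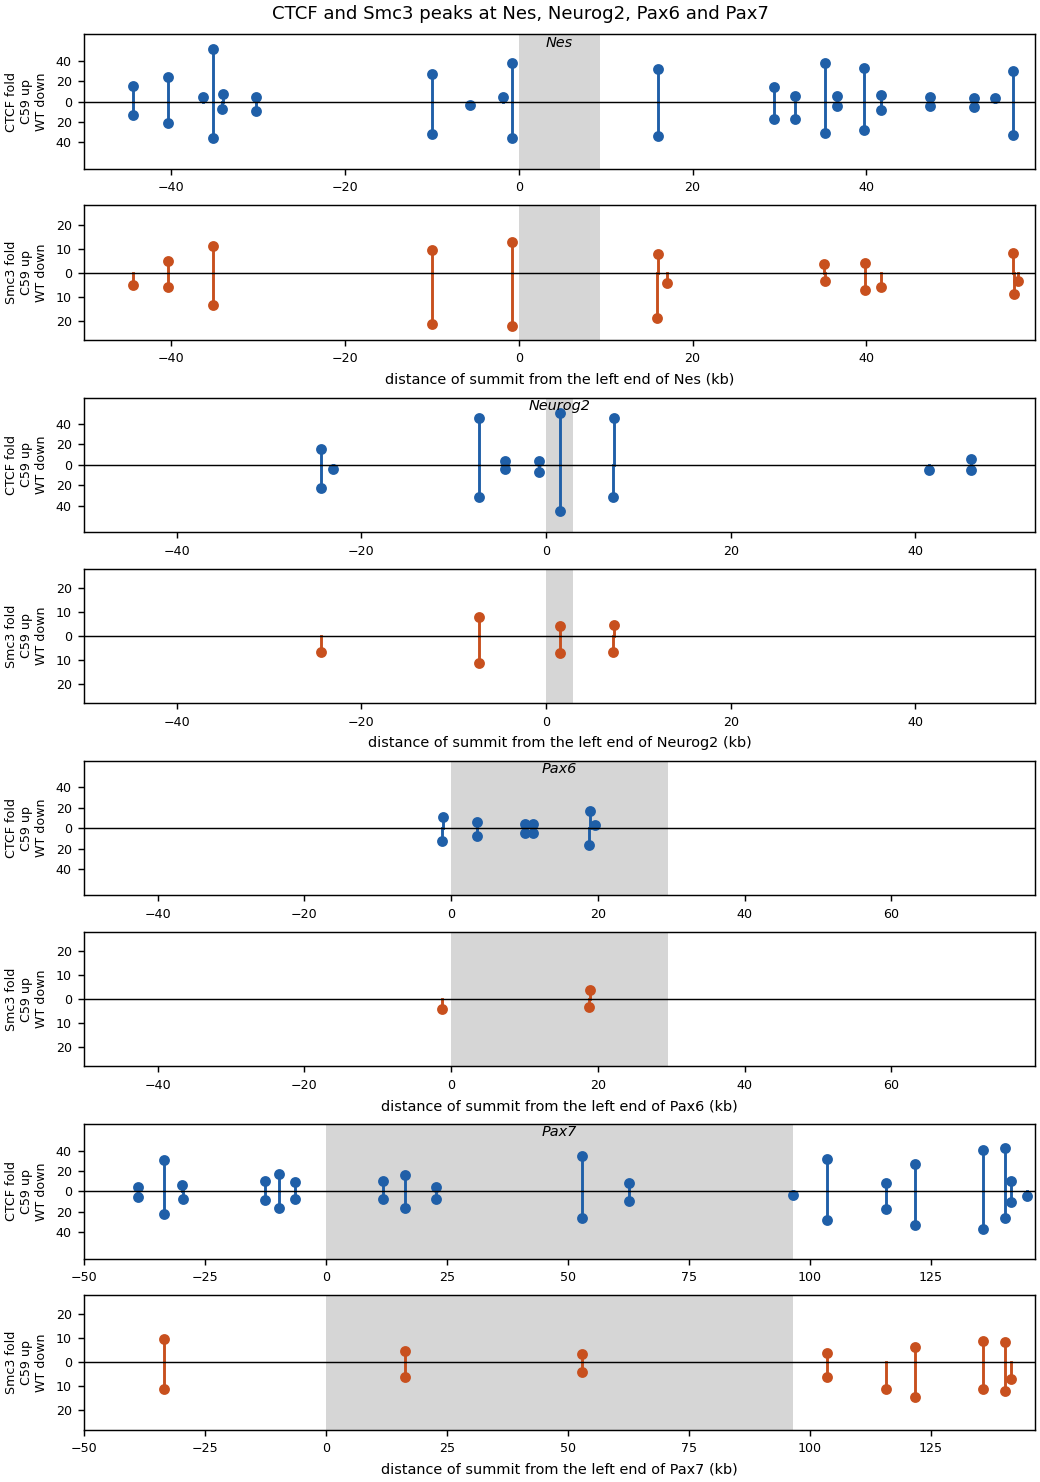
Peak summits by distance from the left end of Nes, Neurog2, Pax6 and Pax7, in kb, with fold enrichment upward for C59 and downward for WT, CTCF in blue and Smc3 in orange; grey marks the gene. Every Smc3 peak overlaps a CTCF peak of its own line, with summits up to 1.03 kb apart in WT at Nes. Pax6 has no stem right of its gene.

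A CTCF summit lay within 1 kb of a gene end at 3 of the 8 genes in C59 (Olig2, Nes and Neurog2) and at 5 in WT (these 3, Olig1 and Pax7), beside 32.9% of all protein-coding genes in C59 and 38.3% in WT. For Smc3 it was 2 genes in C59 (Olig2 and Nes) and 3 in WT (these 2 and Olig1), beside 11.2% in C59 and 20.8% in WT. Sox1, Pax6 and Neurod1 had neither protein at an end in either line. Over the windows, 47 of 61 C59 CTCF peaks and 48 of 63 WT CTCF peaks lay in the flanks, as did 21 of 27 C59 Smc3 peaks and 40 of 49 WT Smc3 peaks. Flank here means outside the 8 genes, so it includes the bodies of neighbouring genes. Among all peaks near protein-coding genes, 35.1% in C59 and 34.2% in WT lay in flanks for CTCF. For Smc3 these shares were 42.1% in C59 and 38.1% in WT. They were placed against all protein-coding genes and not against the 8 alone, so they are not like for like. The 8 genes run from 2171 bp at Olig1 to 96472 bp at Pax7.

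Smc3 at CTCF sites went with the strength of CTCF. Of the C59 CTCF peaks of the windows 41.0% (25 of 61, 28.6 to 54.3) overlapped Smc3 of the same line, beside 30.0% of the whole list, and of the WT ones 54.0% (34 of 63, 40.9 to 66.6), beside 44.3%. Among the 56 WT CTCF peaks paired with C59, 25 carried Smc3 in both lines, 9 in WT alone, 0 in C59 alone and 22 in neither. Their median WT CTCF folds were 32.0 with Smc3 in both lines, 10.6 with Smc3 in WT alone and 7.43 with none. In the whole list the same classes had medians of 26.0, 14.8 and 7.17. The share with Smc3 in both lines was 44.6% in the neural windows and 30.8% in the whole list. Smc3 summits lay a median of 26 bp from the CTCF summit in C59 (26 pairs) and 24 bp in WT (38 pairs).

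Beyond the 8 genes, a list of 60 other neural genes was read at the gene ends. A CTCF peak stood at 17 of the 60 in C59 (28.3%) and at 21 in WT (35.0%), all 17 of C59 being among those of WT. Msi1, an RNA-binding protein of neural stem cells, had 56.2 in C59 and 45.0 in WT, Rax, a homeobox factor of the eye field, had 28.7 in C59 and 35.3 in WT, and Hes1, a repressor downstream of Notch, had 16.4 in C59 and 23.9 in WT. The strongest of the 4 genes with CTCF in WT alone were Dll1, a Notch ligand, with 10.4, the LIM homeobox factor Isl1 with 5.70 and the zinc finger factor Zfp521 with 4.02. Smc3 stood at 7 genes in C59 (11.7%) and 17 in WT (28.3%), 6 of them in both lines. Msi1 had a Smc3 fold of 12.1 in C59 and 14.4 in WT, the homeobox factor Irx3 6.10 in C59 and 12.3 in WT, and Hes1 4.62 in C59 and 8.40 in WT. Sox9, an HMG-box factor of glial fate, had Smc3 in C59 alone, with a fold of 3.81, and of the 11 genes with Smc3 in WT alone Dll1 had 8.53, Neurog3 6.07 and Rbfox3 5.87. Over all protein-coding genes the shares were 32.9% in C59 and 38.3% in WT for CTCF, and 11.2% in C59 and 20.8% in WT for Smc3; the differences from the 60 were not tested.

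Of the 60 genes, 17 had 1 or more WT Smc3 peaks without CTCF in their window, beside 3782 of 21887 protein-coding genes (17.3%). The share was thus larger among the 60, a difference that was not tested. With 5 or more such peaks there were 0 of the 60, beside 146 of all protein-coding genes (0.667%). The highest counts were 4 at Hes1 and at Pax2 and 3 at Msi1, Otx2 and Sox11, beside 6 at Olig1 and Olig2 and 5 at Sox1. By the sum of the differences in peak number over the 4 lists, the gene of the 60 most like Neurog2 was Lhx3, with 7 CTCF peaks in C59, 9 in WT, 3 Smc3 peaks in C59 and 4 in WT for both genes. Nes was nearest to Hes3 (sum 2), Neurod1 to Dcx (2) and Pax7 to Pax5 (6). For the Olig genes and Sox1 the smallest sums were 6 for Olig1 with Sox11, 7 for Olig2 with Dlx2 and Nkx2-2, and 6 for Sox1 with Neurod4, Nkx2-2 and Pax8.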

How the data were processed

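ChIP-seq of CTCF and Smc3 in C59 and WT JM8.N4 embryonic stem cells gave 4 peak lists, 1 per library. Groups came from the sample labels, and each Smc3 library follows its antibody label, although the extraction protocol in the labels speaks of Rad21. Per the submitters' processing notes, build mm10 was used and the tools include Bowtie 0.12.8 and MACS2 2.1.0.20140616, besides FastQC 0.10.1 and deepTools 2.4.1. Which control the peaks were called against is not given in these sources. The pileup signal at each summit, each peak's q-value and p-value and its fold enrichment, a ratio to local background, are the authors' deposited values. Read totals are unknown from the lists; the floor of the implied background was 3.56 in C59 CTCF, 4.27 in WT CTCF, 3.56 in C59 Smc3 and 4.16 in WT Smc3, in the units of each pileup. The libraries of input and IgG were not used here.

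From these, peaks were assigned to windows by summit and matched between lists by an overlap of 1 bp or more in Python 3.11.15 with pandas 2.3.3 and numpy 2.4.6. Intervals came from scipy 1.17.1 and figures from matplotlib 3.10.9. Implied background was pileup plus 1, divided by fold, minus 1. The matching was tested on simulated peaks. Gene positions are from RefSeq GRCm38.p6; its promoter table gave strand and start site for 7 of the 8 genes, and distances are otherwise from the annotated left end. No exon annotation was used. The members and lists were chosen with earlier results of these data known. Named peaks were the strongest WT peak of each window and protein, peaks at gene ends, Smc3 peaks without CTCF, peaks of C59 alone and the strongest of WT alone; other peaks of the maps were added for position. Of the wider list, up to 3 genes per class were named. The gene most like Pax6 is not reported here. No test between lines was made, since each had 1 library per protein. Alternatives covered the overlap rule, the q threshold, lists of equal length, the flank, the gene-end distance and placing peaks by midpoint.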

Additional observations from a re-analysis of the deposited data

How the results depend on the processing

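Values below are C59 first, then WT. Of the alternative values for the counts and shares over all 8 genes and the wider list, 81 stayed within the counting interval or within 1.5 times the count reported and 45 did not; of those for counts in single windows, 90 did and 70 did not. Shares of the whole lists were not taken under these settings. Requiring 50% of both peaks put Smc3 peaks with CTCF at 37.0% and 51.0%, and CTCF peaks with Smc3 at 16.4% and 39.7%. At a −log10 q of 10 or more the windows held 16 and 30 Smc3 peaks, all with CTCF (100% in each line), 100% of C59 CTCF peaks were found in WT, 3 members had WT CTCF at an end, and the wider list had 3 and 11 genes with Smc3 at an end. With lists of equal length the windows held 23 and 23 CTCF peaks and 29 WT Smc3 peaks. The shares found in the other line were then 100% and 100% for CTCF and 85.2% and 79.3% for Smc3, and CTCF peaks with Smc3 were 100% and 91.3%. Gene ends with WT CTCF were then 2, and in the wider list 5 and 6 for CTCF and 8 for WT Smc3. A 20 kb flank gave 32 and 33 CTCF and 15 and 29 Smc3 peaks, and a 100 kb flank 99 and 104, and 44 and 75. With gene ends at 2.5 kb, 4 and 6 members had Smc3, and the wider list had 31 and 38 with CTCF and 13 and 26 with Smc3. At 500 bp, 0 and 2 members had CTCF and 0 had C59 Smc3, and the wider list had 8 and 13 with CTCF and 4 with C59 Smc3. Setting WT Smc3 against CTCF of either line, chosen after seeing the data, left 11 of 49 without CTCF. No paired analysis was possible because each line had 1 library per protein and no test was made. Depth limits weak peaks most: a peak of 1 line alone may be present below threshold in the other.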
